A study of Mus musculus with 11 samples.

Results

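This account covers 10 neural crest genes in mouse neural tissue on either side of the point where the neural tube closes. They are the endothelin receptor gene Ednrb, the neurotrophin receptor gene Ngfr and the crest specifiers Sox10, Foxd3, Snai1, Snai2, Tfap2a, Tfap2b, Tfap2c and Twist1. The genes were taken by name. All 10 of the 18193 genes that had a probe set with a single gene symbol were found, with 22 of 34945 such probe sets. For each gene the probe set of highest mean over all arrays leads, and the others are given beside it.

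RNA from C57BL/6 embryos was hybridized to Affymetrix mouse expression arrays of 1 colour. Open neuroepithelium, the neural plate tailward of the closure point, gave 3 arrays at each of E8.5 and E9.5. Closed neural tube, which began a somite's breadth headward of that point, gave 2 arrays at E8.5 and 3 at E9.5. No genotype or treatment is named beyond the protease used to free the tissue (2.5% pancreatin and 0.5% trypsin, 5 min at E8.5 and 8 min at E9.5). Closely attached notochord came with every sample, and each array holds tissue pooled by litter (111 embryos in all). Closed tissue was rostral to open tissue, so closure and axial level cannot be told apart, and neither can stage and digestion time. The 12th array, closed E8.5, was removed by the authors for its quality.

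Neural crest cells form at the dorsal edge of the neural tube, lose their epithelial contacts and migrate out to make peripheral neurons and glia, pigment cells and, in the head, skeleton. Tfap2 factors act early at the border of neural plate and surface ectoderm, Foxd3 and Sox10 keep premigratory and migrating crest in its state, and Snai1, Snai2 and Twist1 repress epithelial genes. Ednrb is the receptor for endothelin 3 on migrating crest that gives rise to melanocytes and enteric neurons. Snail, Twist and Tfap2 genes are also used by mesoderm and surface ectoderm.

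Values are log2 signal as deposited, and differences are log2, with the standard error (SE) of a limma model fitted over all genes. A gene was tested when its mean over 11 arrays reached 4.30, below which 40% of the probe sets lie, which gave 13338 genes, among them 9 of the 10. Twist1, at 4.20, was below and was not tested. Tfap2b passed only through closed tissue, where it is high, and open tissue was at 3.76 and 3.78. A gene was called past the threshold at a Benjamini-Hochberg adjusted p under 0.05 over all tested genes. In these bulk samples fewer expressing cells and less RNA per cell cannot be told apart. Nor can crest cells be told from other cells of the tissue that express the same gene.

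Of 10 listed neural tube markers 9 had group means above the filter in both tissues at both stages, and Olig2, a ventral progenitor gene, was above it in closed tissue only (3.65 and 3.66 in open tissue). The list mean was 7.52 to 7.95 on open and 9.56 to 9.89 on closed arrays. As a sign of RNA quality, Gapdh and Actb controls read higher at the 3-prime than at the 5-prime end, by 1.14 to 1.82 on 9 arrays and by 2.20 and 2.48 on open E9.5 replicates 1 and 2. This excess was 1.82 in closed E8.5 replicate 1 and 1.18 in closed E8.5 replicate 2. The closed E8.5 replicates stood apart from each other: replicate 2 exceeded replicate 1 by more than 1 in 2.00% of tested genes, and replicate 1 exceeded replicate 2 in 0.112%. Among 15 paraxial and presomitic mesoderm genes 6 were higher by more than 1 in replicate 2, and 0 in replicate 1. The greatest rises were in the somite genes Foxc2 (6.50 against 4.08) and Meox1 (8.11 against 6.30). Of the 6, Meox1 and Foxc1 were tested, while Meox2, Foxc2, Tbx18 and Myf5 had means below the filter. The 2.00% covers tested genes only, so it is not a like share for this list. Other genes of the list were lower in replicate 2, Pax9 (4.89 against 5.61) and Msgn1 (4.35 against 4.86) among them. The mean of that list was 4.50 in replicate 1 and 5.09 in replicate 2. The E8.5 results of the tested crest genes and of the crest lists are therefore given with and without closed replicate 2.

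At both stages Ednrb, Foxd3 and Tfap2c were higher in closed neural tube. Tfap2b passed in the same direction, but it was tested only because closed tissue is high. Ngfr, which encodes the p75 neurotrophin receptor of migrating crest, was lower there at E8.5. Of 9 tested genes 4 were higher and 1 lower in closed tissue at E8.5, where 7.17% of all tested genes passed, 3.79% as higher and 3.38% as lower. At E9.5 4 were higher and 0 lower, where 8.54% passed, 2.75% as higher and 5.79% as lower. Without Tfap2b, 3 of 8 were higher at each stage. Foxd3, which was 1 of them, was close to the filter value in open tissue (means of 4.30 and 4.39). The median difference of those 8 genes was 0.49 at E8.5 and 0.50 at E9.5, and that of all tested genes 0.00 and -0.01. Groups did not overlap, in either direction, for 6 of the 8 at E8.5 and 5 at E9.5, against 27.5% and 22.5% of all tested genes. At E8.5 Snai2 and Ngfr were among them as lower in closed tissue, and at E9.5 all were higher.

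**Figure D1:**
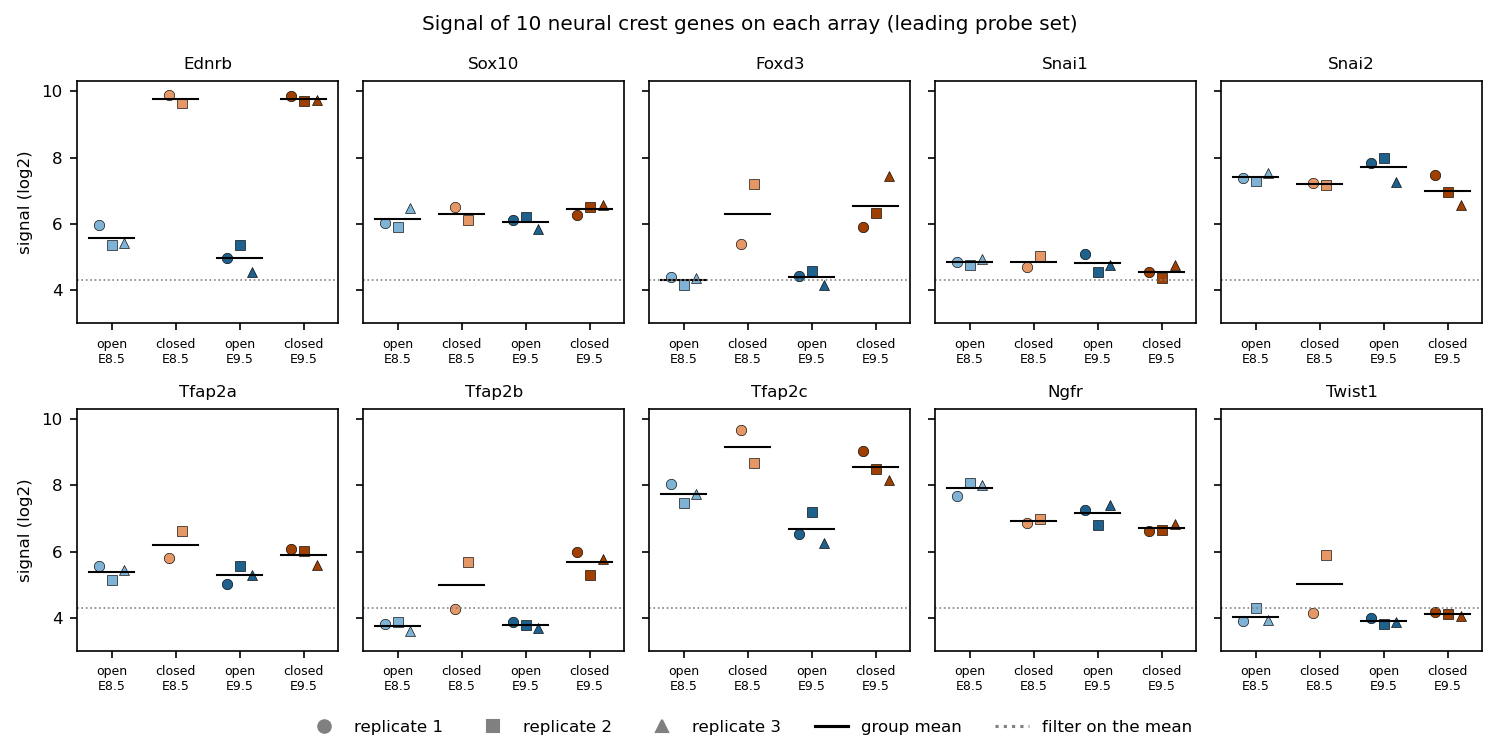
Signal (log2) of the leading probe set of each gene on every array, by region and stage; markers show the replicate, bars the group mean, and the dotted line the filter of 4.30 that was applied to the mean over 11 arrays. Ednrb lies at 9.66 to 9.89 on all closed arrays and at 4.55 to 5.96 on all open arrays, while Foxd3, Tfap2b and Twist1 are higher in closed E8.5 replicate 2 than in replicate 1.

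Ednrb had the greatest difference of the 10. In open tissue its signal was 5.96, 5.35 and 5.42 on the E8.5 arrays and 4.98, 5.37 and 4.55 on the E9.5 arrays. In closed tissue the E8.5 arrays read 9.89 and 9.66, and the E9.5 arrays 9.87, 9.71 and 9.75. The lowest closed array lay far above the highest open array, and the closed replicates were close together. The group means were 5.57 ± 0.33 (SD, n = 3) in open and 9.78 ± 0.16 (SD, n = 2) in closed tissue at E8.5, a difference of 4.20 (SE 0.24, adjusted p = 5.42e-07) or 18.4-fold. At E9.5 they were 4.97 ± 0.41 and 9.78 ± 0.08 (SD, n = 3 each), a difference of 4.81 (SE 0.21, adjusted p = 1.04e-07) or 28.1-fold. Ranked from the highest closed minus open difference among 13338 genes, Ednrb was number 6 at E8.5 and number 2 at E9.5. The levels in the closed groups differed by 0.00 between the stages (95% interval -0.51 to 0.52). Open tissue was lower at E9.5 by a difference of -0.61 that did not pass (95% interval -1.07 to -0.15, adjusted p = 0.145).

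The other Ednrb probe sets showed smaller differences. Probe set 1423594_a_at read 4.19, 4.07 and 4.11 in open E8.5 and 4.23, 4.06 and 4.02 in open E9.5 tissue, all below the filter value. In closed tissue its E8.5 arrays read 4.93 and 6.59, and its E9.5 arrays 5.10, 5.12 and 5.64. Every closed array was above every open one, and closed E8.5 replicate 2 exceeded replicate 1 by 1.66, whereas the leading probe set was lower there by -0.23. Fitted with every probe set on its own, 1423594_a_at differed by 1.64 at E8.5 (SE 0.36, adjusted p = 0.0247) and by 1.18 at E9.5 (SE 0.32, adjusted p = 0.0638). Like Tfap2b, 1423594_a_at was tested only because closed tissue is high (mean of 4.73), and these sizes depend on the background. The third, 1426314_at, had a mean of 4.07, below the filter. The array annotation used here does not say which transcripts the probe sets of one gene share.

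No other tested gene of the endothelin pathway passed with the receptor. Of 7 listed genes 6 had a probe set and 5 were tested, of which Ednrb alone passed, at both stages. The other receptor gene, Ednra, had no probe set with a single symbol. Edn3, a ligand of Ednrb, differed by -0.28 at E8.5 (SE 0.15, adjusted p = 0.483) and 0.11 at E9.5 (SE 0.14, adjusted p = 0.724). Edn1, another endothelin gene, differed by -0.03 and 0.23 (adjusted p = 0.983 and 0.148). The converting enzyme genes Ece1 (0.10 and 0.13) and Ece2 (0.17 and 0.06) did not pass, and Edn2 was below the filter. Without closed E8.5 replicate 2 the E8.5 count was the same, with Edn3 at -0.16 (adjusted p = 0.767).

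The 5 tested genes whose signal ran most like Ednrb over the 11 arrays were Meis1 (Pearson r 0.995), Nrcam (0.992), Spon1 (0.990), Ildr2 (0.989) and Ccdc160 (0.989). The arrays fall into 4 groups and 2 regions, so these values mostly restate a shared region difference. Meis1, a cofactor of Hox proteins, read 6.70 in open and 9.79 in closed tissue at E8.5, then 6.44 in open and 9.54 in closed tissue at E9.5. Nrcam, a neuronal adhesion molecule, read 6.63, 10.11, 5.94 and 9.68 in the same order of groups.

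Among the crest specifiers, Foxd3, a forkhead repressor, read 4.38, 4.16 and 4.37 in open E8.5 and 4.43, 4.59 and 4.16 in open E9.5 tissue, close to the filter value. In closed tissue the E8.5 arrays read 5.39 and 7.21, and the E9.5 arrays 5.89, 6.32 and 7.44. The regions did not overlap at either stage, but the closed replicates were widely spread, with an SD of 1.29 (n = 2) and 0.80 (n = 3). The closed E8.5 values of 5.39 and 7.21 came with a 3-prime excess of 1.82 and 1.18. The closed E9.5 values of 5.89, 6.32 and 7.44 came with 1.72, 1.44 and 1.20. Open arrays, close to the filter value, ran the other way, from 4.16 at an excess of 1.14 to 4.59 at 2.48. The part of RNA quality in this spread was not tested. The difference was 1.99 at E8.5 (SE 0.48, adjusted p = 0.0267) and 2.16 at E9.5 (SE 0.43, adjusted p = 0.00763). Its size depends on the background because open tissue was close to the filter value.

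Tfap2b, a Tfap2 factor of the premigratory crest, read 3.82, 3.87 and 3.59 in open and 4.27 and 5.69 in closed tissue at E8.5. At E9.5 it read 3.88, 3.77 and 3.68 in open and 5.98, 5.28 and 5.78 in closed tissue. All closed E9.5 arrays were well above all open arrays, while closed E8.5 replicate 1 stayed below the filter value. The difference was 1.22 at E8.5 (SE 0.32, adjusted p = 0.0436) and 1.90 at E9.5 (SE 0.29, adjusted p = 0.00123), and its size depends on the background because open tissue was below the filter value. The E8.5 call was lost in 14 of 23 alternative settings and the E9.5 call in none of 23. Its other probe set, 1423340_at, had a mean of 4.26 and was not tested, and differed by 1.51 and 2.23.

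Tfap2c had the same direction from a higher signal. It read 8.03, 7.47 and 7.74 in open and 9.67 and 8.68 in closed tissue at E8.5. At E9.5 it read 6.55, 7.21 and 6.26 in open and 9.04, 8.49 and 8.15 in closed tissue. The regions did not overlap at either stage, and of the closed E8.5 replicates it was replicate 1 that was higher, unlike Foxd3 and Tfap2b. The difference was 1.43 at E8.5 (SE 0.35, adjusted p = 0.0281) and 1.89 at E9.5 (SE 0.31, adjusted p = 0.00218). The leading probe set, 1436392_s_at, carries the suffix Affymetrix gives to probes that can match several transcripts. Probe set 1418147_at, fitted on its own, was also higher in closed tissue, by 0.80 (adjusted p = 0.0058) and 0.62 (adjusted p = 0.0118), while 1448977_at differed by 0.45 and 0.41 and did not pass (adjusted p = 0.299 and 0.217).

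Tfap2a, which is needed for cranial closure and crest formation in mice, read 5.57, 5.15 and 5.44 in open and 5.80 and 6.62 in closed tissue at E8.5, and 5.03, 5.57 and 5.30 against 6.09, 6.01 and 5.61 at E9.5. Closed arrays were above open arrays at both stages by a narrow gap. The differences of 0.82 (95% interval 0.28 to 1.36, adjusted p = 0.0765) and 0.60 (95% interval 0.11 to 1.08, adjusted p = 0.142) did not pass. The E8.5 difference passed with the mean of all probe sets (adjusted p = 0.0334) and with the 3-prime excess as a covariate (adjusted p = 0.0397). Probe set 1426048_s_at differed by 0.67 and 0.40 and did not pass either (adjusted p = 0.0837 and 0.283).

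**Figure D2:**
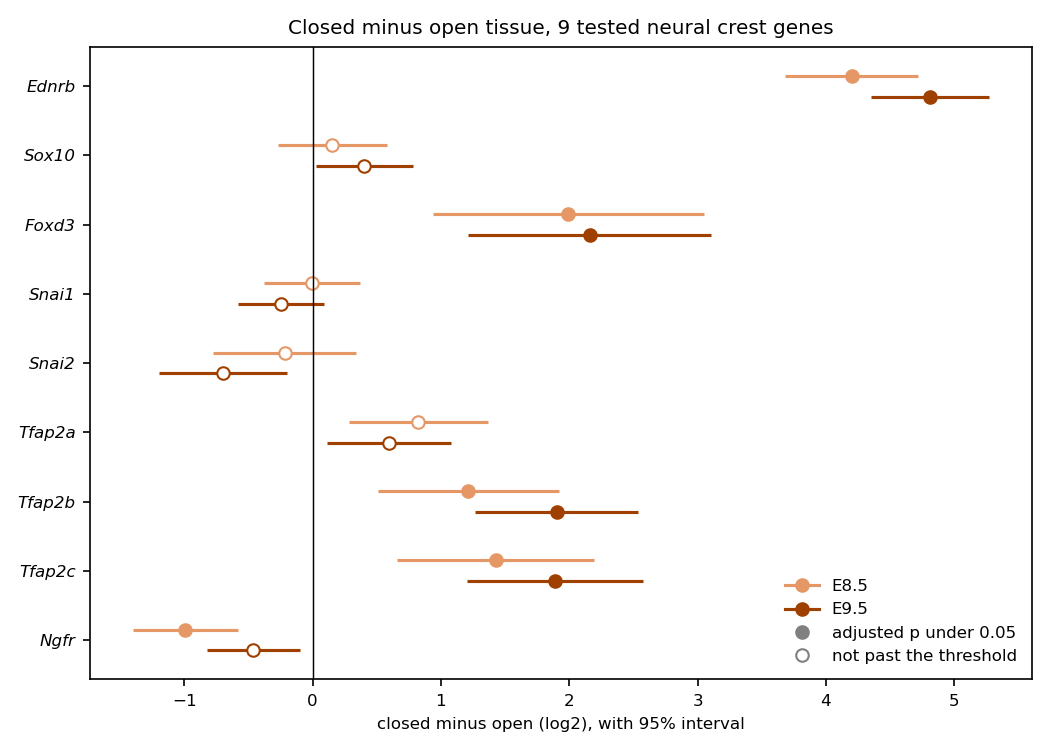
Closed minus open difference (log2, horizontal axis) with its 95% interval from the limma model for the 9 tested genes at E8.5 (light) and E9.5 (dark); filled points passed an adjusted p under 0.05. Ednrb stands at 4.20 and 4.81, Foxd3, Tfap2b and Tfap2c lie between 1.22 and 2.16, and Ngfr is on the other side of 0 at both stages, past the threshold at E8.5.

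The E8.5 calls of Foxd3 and Tfap2b ended without closed replicate 2. Without it, Foxd3 differed by 1.08 (adjusted p = 0.259) and Tfap2b by 0.50 (adjusted p = 0.334), with the lone closed array assumed to vary like the other groups. Tfap2c then differed by 1.92 (adjusted p = 0.0132), Ednrb by 4.32 (adjusted p = 9.32e-06) and Ngfr by -1.05 (adjusted p = 0.0282). The other tested genes did not pass with or without it, and differed without it by 0.42 for Tfap2a (adjusted p = 0.511), 0.35 for Sox10 (0.562), -0.16 for Snai1 (0.778) and -0.18 for Snai2 (0.863). Without closed replicate 1 it was Tfap2c that did not pass (0.93, adjusted p = 0.253), and Tfap2a passed (1.23, adjusted p = 0.0126). Leaving out a single open E8.5 array also ended calls: Tfap2b (adjusted p = 0.104, 0.0875 and 0.15 without open replicates 1, 2 and 3), Foxd3 (0.0709, 0.0829 and 0.0766) and Tfap2c (0.103 and 0.0871 without open replicates 2 and 3). At E9.5 no single array left out ended the call of Ednrb, Foxd3, Tfap2b or Tfap2c.

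Of the 10 genes, 3 were higher by more than 1 in closed E8.5 replicate 2 than in replicate 1: Foxd3 by 1.82, Twist1 by 1.76 and Tfap2b by 1.42. In the list of other crest transcription factors 4 of 20 were, with Id1 at 1.81 and Zeb2 at 1.49 (Zeb2 represses epithelial genes), beside the 6 mesoderm genes above. These 2 arrays also differed in the 3-prime excess of the controls, 1.82 in replicate 1 and 1.18 in replicate 2. With 1 array of each kind, mesoderm and RNA quality cannot be told apart here, and their part in the E8.5 result was not tested. At E9.5 the mesoderm list had a mean of 4.35 to 4.40 on closed and 4.61 to 4.80 on open arrays. That gap lay in the presomitic genes Hes7 (9.11 in open against 5.99 in closed tissue) and Tbx6 (6.28 against 4.29), and the other 13 genes had a mean of 4.27 in open and 4.25 in closed tissue. Of the 15 genes 6 had a higher mean in closed tissue, Meox1 (5.74 against 6.16, adjusted p = 0.584) among them. Markers of surface ectoderm, where Tfap2a and Tfap2c are also expressed, were lower in closed tissue in 6 of 12 tested genes at E8.5 and 3 at E9.5, and higher in 0. The mean of the 15 listed genes was 6.22 to 6.38 in open and 5.50 to 5.55 in closed tissue at E8.5, and 5.78 to 5.84 against 5.41 to 5.48 at E9.5. Among its defining markers, Krt14 had a mean of 3.91, below the filter, and Trp63 4.38. The part of these tissues in the levels of Tfap2a and Tfap2c was not tested.

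**Figure D3:**
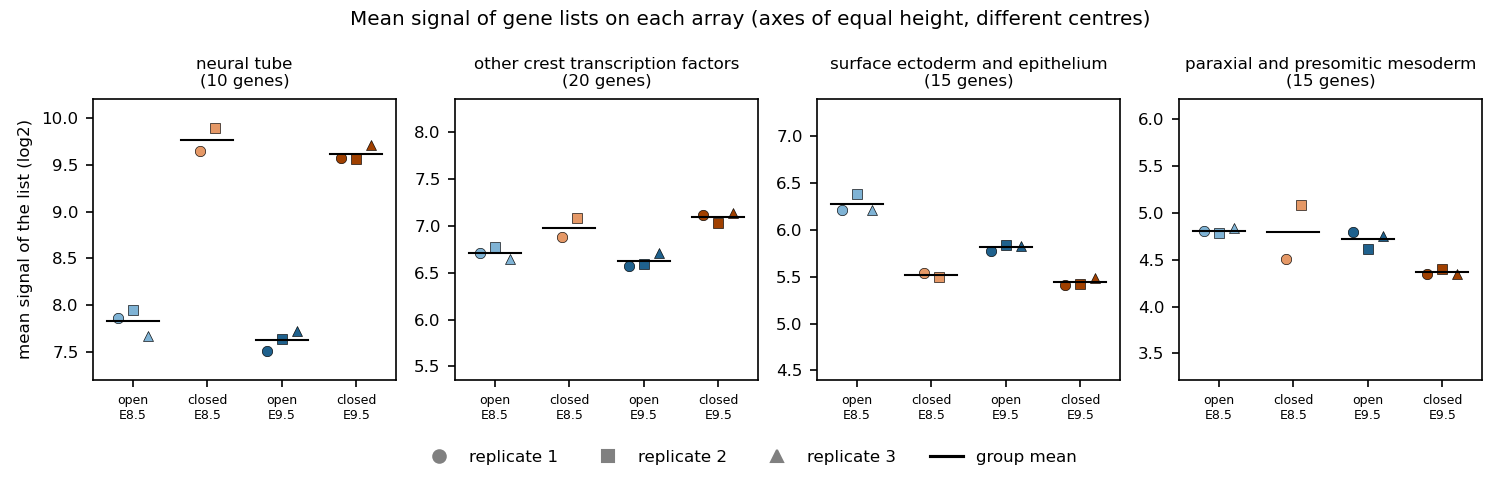
Mean signal (log2) over the genes of 4 lists on every array, by region and stage; markers show the replicate and bars the group mean, on axes of equal height with different centres. Closed arrays are above open arrays for the neural tube list and below them for surface ectoderm at both stages, and the mesoderm list is at 5.09 in closed E8.5 replicate 2 against 4.50 in replicate 1.

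Sox10, the HMG-box factor of migrating crest and glia, depended on the probe set. The leading one, 1424985_a_at, read 6.04, 5.91 and 6.47 in open and 6.49 and 6.10 in closed tissue at E8.5, and 6.10, 6.21 and 5.83 against 6.28, 6.51 and 6.57 at E9.5. Its differences were 0.15 (95% interval -0.27 to 0.58, adjusted p = 0.912) and 0.40 (95% interval 0.02 to 0.78, adjusted p = 0.225). Probe set 1451689_a_at read 5.87, 5.60 and 5.78 in open and 5.95 and 6.48 in closed tissue at E8.5, and 5.54, 5.69 and 5.41 against 6.87, 6.81 and 6.85 at E9.5. Its closed E9.5 arrays lay together above all others. Fitted on its own, it differed by 0.47 at E8.5 (SE 0.17, adjusted p = 0.201) and was higher in closed tissue by 1.29 at E9.5 (SE 0.15, adjusted p = 0.000293). The change of that difference between the stages was 0.83 (SE 0.22, adjusted p = 0.21), which did not pass. The third probe set, 1425369_a_at, had a mean of 3.96, below the filter.

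**Figure D4:**
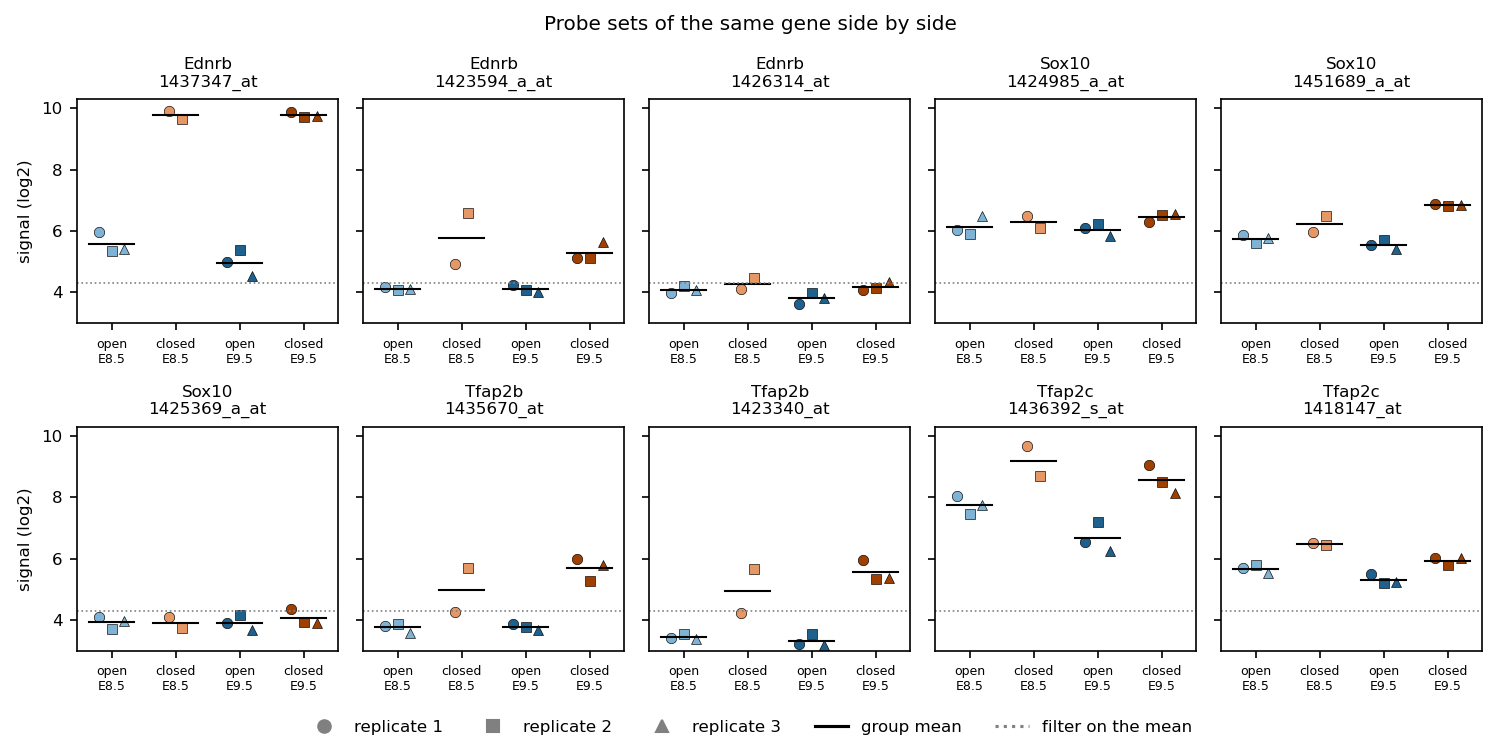
Signal (log2) of 10 probe sets of Ednrb, Sox10, Tfap2b and Tfap2c on every array, by region and stage, with markers for replicates, bars for group means and the filter of 4.30 dotted. Both probe sets of Tfap2b show the same pattern, whereas 1451689_a_at of Sox10 is at 6.81 to 6.87 in closed E9.5 tissue and 1424985_a_at, the leading one, at 6.28 to 6.57.

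The zinc finger repressors Snai1 and Snai2 and the bHLH factor Twist1, which lower epithelial adhesion during delamination, did not pass as higher in closed tissue. Snai1 read 4.77 to 4.92 in open and 4.69 and 5.01 in closed tissue at E8.5, and 4.55 to 5.09 against 4.36 to 4.77 at E9.5, with overlap at both stages. Its differences were 0.00 (95% interval -0.38 to 0.37, adjusted p = 0.999) and -0.25 (95% interval -0.58 to 0.09, adjusted p = 0.44). Snai2 read 7.40, 7.30 and 7.54 in open and 7.23 and 7.16 in closed tissue at E8.5, and 7.84, 8.00 and 7.28 against 7.49, 6.95 and 6.58 at E9.5. It differed by -0.22 (95% interval -0.78 to 0.34, adjusted p = 0.895) and -0.70 (95% interval -1.20 to -0.20, adjusted p = 0.0933). With the replicate block within stage, Snai2 passed as lower in closed tissue at E9.5 (-0.70, adjusted p = 0.00404). It also passed there without open replicate 3 (-0.91, adjusted p = 0.019) or closed replicate 1 (-0.94, adjusted p = 0.0224). Its leading probe set, 1447643_x_at, has the suffix for probes that may also bind other sequences, and 1418673_at had a mean of 4.16, below the filter, with differences of -0.11 and -0.23.

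Twist1 was near background on all arrays except 1. It read 3.89, 4.29 and 3.92 in open and 4.15 and 5.90 in closed tissue at E8.5, and 4.0, 3.80 and 3.88 against 4.16, 4.11 and 4.06 at E9.5. Closed E8.5 replicate 2 was thus the array that stood out, the same one with high Meox1 and Foxc2. Fitted without the filter, Twist1 differed by 0.99 at E8.5 (SE 0.35, adjusted p = 0.179) and 0.21 at E9.5 (SE 0.31, adjusted p = 0.819).

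Ngfr read 7.67, 8.06 and 8.02 in open and 6.87 and 6.99 in closed tissue at E8.5, with no overlap. At E9.5 it read 7.26, 6.81 and 7.41 in open and 6.63, 6.65 and 6.82 in closed tissue, where open replicate 2 lay within the closed range. The difference was -0.99 at E8.5 (SE 0.19, adjusted p = 0.00564) and -0.46 at E9.5 (SE 0.17, adjusted p = 0.131). With the replicate block within stage Ngfr passed as lower at E9.5 as well (-0.46, adjusted p = 0.0291). It passed there without open replicate 2 (-0.64, adjusted p = 0.0285) and with the 3-prime excess as a covariate (-0.63, adjusted p = 0.00934). The change of the difference between the stages was 0.53 (SE 0.25, adjusted p = 0.538). Its other probe sets, 1450177_at and 1421241_at, had means of 3.95 and 3.76, below the filter.

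Between the stages, 1 of the 9 tested genes passed in open tissue, where 5.02% of all tested genes did, 3.61% as higher and 1.42% as lower at E9.5. Of all those calls 71.8% were higher, against 61.3% after quantile normalization and 50.7% with array weights. Groups did not overlap for 2 of the 9, against 21.8% of all tested genes. Ngfr fell by 0.76 from E8.5 to E9.5 (SE 0.17, adjusted p = 0.0219), with all E9.5 arrays below all E8.5 arrays. This call ended without open E8.5 replicate 2 (adjusted p = 0.0918) or 3 (0.0963), without open E9.5 replicate 1 (0.0534), 2 (0.0772) or both (0.357), with the 3-prime excess as a covariate (0.0624) and with only the groups compared (0.0702). Tfap2c had a difference of -1.08 (95% interval -1.76 to -0.39, adjusted p = 0.0805), also without overlap, which passed as lower at E9.5 without closed E8.5 replicate 1 or 2 (adjusted p = 0.0443 each) and with the 3-prime excess as a covariate (-1.67, adjusted p = 0.000442). Ednrb passed as lower there too with that covariate (-0.96, adjusted p = 0.00482). In closed tissue 0 of 9 passed by limma's adjusted p or at an unadjusted p under 0.05, where 2.42% of all tested genes passed, 0.96% as higher and 1.46% as lower. Groups did not overlap there for 1 of the 9, against 21.2% of all tested genes. Without closed E8.5 replicate 2, Tfap2b was higher at E9.5 than at E8.5 in closed tissue by 1.42 (adjusted p = 0.00848, against 0.494 with it). For the change of the region difference between the stages 0 of 9 passed, also with 0 at an unadjusted p under 0.05, where 1.25% of all tested genes did, 0.3% with a larger and 0.952% with a smaller closed minus open value at E9.5. Without that array Tfap2b passed there too (1.40, adjusted p = 0.0493).

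Promoter windows were looked at for the genes that were higher in closed tissue together. Of the 10 genes, 7 had an entry in the RefSeq promoter table (GRCm38.p6). Sox10, Snai2 and Tfap2c had none. The 250 bases before the transcript start that the table uses are shown for Ednrb, Foxd3 and Tfap2b, 5′ to 3′ on the gene's strand, with a match to the Tfap2 motif in capitals. These are the genes with an entry that were called higher in closed tissue at both stages. Tfap2b was tested only because closed tissue is high, and its E8.5 call was lost in 14 of 23 alternative settings. Ednrb lies on the minus strand (chr14:103843702-103843951), Foxd3 on the plus strand (chr4:99656049-99656298) and Tfap2b on the plus strand (chr1:19211804-19212053). The Foxd3 window ends where the annotated gene begins. The windows of Ednrb and Tfap2b lie inside the outer bounds of the annotated genes (chr14:103814615-103844508 and chr1:19208908-19238845), so an annotated start lies further upstream of each.
Ednrb: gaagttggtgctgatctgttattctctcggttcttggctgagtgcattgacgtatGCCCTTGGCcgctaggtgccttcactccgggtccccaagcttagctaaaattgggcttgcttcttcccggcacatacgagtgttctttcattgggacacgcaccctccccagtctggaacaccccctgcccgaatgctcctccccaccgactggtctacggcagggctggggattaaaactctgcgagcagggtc
Foxd3: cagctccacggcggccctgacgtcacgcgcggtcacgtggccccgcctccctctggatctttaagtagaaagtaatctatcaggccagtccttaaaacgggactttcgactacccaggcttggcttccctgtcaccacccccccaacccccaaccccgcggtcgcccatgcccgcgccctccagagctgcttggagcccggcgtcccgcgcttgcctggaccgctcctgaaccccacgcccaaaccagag
Tfap2b: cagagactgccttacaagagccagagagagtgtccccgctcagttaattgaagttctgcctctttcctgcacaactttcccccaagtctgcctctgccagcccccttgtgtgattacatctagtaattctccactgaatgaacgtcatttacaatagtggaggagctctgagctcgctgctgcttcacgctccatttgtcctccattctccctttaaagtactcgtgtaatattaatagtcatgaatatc
The Ednrb window held 1 match to GCCNNNGGC, a Tfap2 motif, 195 to 187 bases before the start, and 13.7% of 32851 such windows held at least 1. None of the 3 windows held the Snail and Zeb E-box (CAGGTG or its reverse complement CACCTG, in 17.2% of windows), the Twist E-boxes (CATATG or CATCTG, and the reverse complement CAGATG, in 17.3%) or the Sox motif (AACAAAG or CTTTGTT, in 5.03%). Among the other 4 genes with an entry, Snai1 had 1 Snail E-box, 126 to 121 bases before its start, and 1 Tfap2 match. The Tfap2 motif reads the same on both strands, and no match found here overlapped another. A match is a run of letters and not a shown binding site.

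Other genes of the crest network were read from lists, and both regions' group means are given as open against closed. The counts stand beside the shares of all tested genes that passed, 3.79% higher and 3.38% lower at E8.5, then 2.75% higher and 5.79% lower at E9.5. With few genes in a list a count of 1 is near those shares. Of 16 tested further crest transcription factors, 5 were higher and 1 lower in closed tissue at E8.5 (median 0.06), and 4 higher and 0 lower at E9.5 (median 0.24). Sox9, a crest and neural progenitor factor, was higher by 1.24 (6.19 against 7.43, adjusted p = 0.00122) and 1.97 (6.00 against 7.96, adjusted p = 1.27e-05). The BMP target Id3 was higher by 2.34 (8.97 against 11.31) and 2.15 (8.25 against 10.40). The retinoid receptor gene Rxrg was lower at E8.5 (-0.88, adjusted p = 0.00165). Without closed E8.5 replicate 2 the E8.5 count was 4 higher and 1 lower.

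Of 12 tested border and dorsal tube genes, 5 were higher and 2 lower at E8.5 (median 0.11), and 4 higher and 3 lower at E9.5 (median 0.23). Of the higher genes 2 at each stage, Zic1 and Wnt1, were tested only because closed tissue is high. Zic1 read 8.55 in closed tissue at E8.5 and 8.32 at E9.5, and open tissue was below the filter value (3.26 and 3.73), so no size is given for that difference. Pax3, which crest and dorsal tube need, was higher at E8.5 by 2.16 (7.96 against 10.12, adjusted p = 8.77e-06). At E9.5 it was higher by 1.09 (8.82 against 9.91, adjusted p = 0.000763). The growth factor gene Bmp4 was lower by -0.83 (adjusted p = 0.0115) and -0.72 (adjusted p = 0.013), and Zic5 was lower at E9.5 (-1.05, adjusted p = 0.000303). Without closed E8.5 replicate 2 the E8.5 count was 4 higher and 2 lower.

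Of 13 tested migration receptors and ligands, 5 were higher and 1 lower at E8.5, and 3 higher and 1 lower at E9.5 (medians 0.20 and 0.12). The semaphorin receptor gene Nrp1 was higher by 3.46 and 2.93. Ret, the GDNF receptor of enteric crest, was higher at E8.5 by 1.20 (7.73 against 8.93, adjusted p = 0.00468). At E9.5 it was higher by 3.09 (5.39 against 8.49, adjusted p = 1.18e-06). Epha4 was lower by -1.84 and -1.56 (adjusted p = 1.23e-05 and 1.81e-05). Without closed E8.5 replicate 2 the E8.5 count was 4 higher and 1 lower.

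Of 11 tested delamination and adhesion genes, 1 was higher and 0 lower at E8.5, and 1 higher and 5 lower at E9.5 (medians -0.16 and -0.39). The member that was higher was Cdh6, a cadherin of premigratory crest (0.84 and 0.70, adjusted p = 0.00415 and 0.00598). At E9.5 the protease gene Mmp2 (-0.86, adjusted p = 0.00198) and the mesenchymal cadherin gene Cdh11 (-0.95, adjusted p = 0.0029) were lower. Without closed E8.5 replicate 2 the E8.5 count was 1 higher and 1 lower, Mmp2 being added. Of 10 tested genes of crest derivatives, 1 was higher and 2 lower at E8.5 (median -0.06), and 0 higher and 1 lower at E9.5 (median 0.04). Fabp7, a lipid-binding protein of glia and neural progenitors, was the higher one (1.15, adjusted p = 0.0225), and it did not pass without closed E8.5 replicate 2 (0.94, adjusted p = 0.182). The E8.5 count was then 0 higher and 2 lower. Among the listed pigment cell genes, Pmel was lower in closed tissue at E8.5 (-1.0, adjusted p = 0.00105) and did not pass at E9.5 (-0.33, adjusted p = 0.187). Mitf was lower at E9.5 (-0.53, adjusted p = 0.0448) and did not pass at E8.5 (-0.58, adjusted p = 0.0541). Dct differed by 0.10 and 0.34 and did not pass (adjusted p = 0.974 and 0.465). Tyr, with a mean of 3.47, was below the filter. Phox2a, a factor of autonomic neurons, was lower at E8.5 (-1.17, adjusted p = 0.000142) and did not pass at E9.5 (-0.41, adjusted p = 0.0556).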

How the data were processed

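The authors deposited log2 signal of 45101 probe sets on 11 arrays, from 2.37 to 14.72, made from 50 ng of RNA with a 2-cycle labelling, per the labels' protocols. MAS5 is named in the submitters' processing notes without version or role. Background correction, summary and normalization of the deposited log2 values are not given in the sources used here, and values were used as deposited. The number of arrays limits the precision.

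Probe sets were named from the platform annotation (932 with several symbols and control probe sets left out), and 34741 of 34945 matched RefSeq gene IDs. For each gene the probe set with the highest mean stood for it. The 4 group means were fitted with limma 3.58.1 in R 4.3.3 (lmFit, eBayes with an intensity trend, 7 residual degrees of freedom), after tests on simulated data. Replicates are separate biological samples per the labels. The rule for named genes was the 10 members, all endothelin pathway genes, the 5 genes most like Ednrb, and from each list examples among the called genes ranked 1 or 2 by p, higher and lower apart, plus defining markers near background. Meox1, Meox2, Foxc1, Foxc2, Tbx18, Myf5, Pax9, Msgn1, Id1, Zeb2, Wnt1, Dct and Tyr were named after their values were seen. Hes7 and Tbx6 were likewise set apart from their list after their values were seen. The list counts without closed E8.5 replicate 2 were added after the data were seen. Members, lists, tests and alternatives were chosen with earlier results of these data known.

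Whether replicate numbers pair arrays was checked from deviations from the group means, correlated across genes. For an open and a closed array with the same number the correlation was 0.576 and 0.697 on the E8.5 arrays, and 0.308, 0.341 and 0.687 on the E9.5 arrays. Of different numbers at E9.5, open replicate 1 with closed 2 had 0.264 and open 2 with closed 1 had 0.317. The other E9.5 pairs of different numbers lay at -0.412 to -0.544. At E8.5 the deviations of the 2 closed arrays mirror each other, so their values are not independent. Pairing by number is therefore unsure, and the block within stage is given only as an alternative. The same numbers across stages had correlations from -0.529 to 0.303. Alternatives were other normalizations, filters, probe set rules, variance models, replicate blocks, the 3-prime excess of the control probe sets as a covariate and arrays left out.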

Additional observations from a re-analysis of the deposited data

How the results depend on the processing

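Ednrb at both stages, Tfap2b and Tfap2c at E9.5 and Ngfr at E8.5 kept their direction and their call under every alternative run that tested them. Of these, Tfap2b passed the main filter only because closed tissue is high. The number of the 9 tested genes past the threshold was 5 at E8.5 and 4 at E9.5 for the regions, 1 in open and 0 in closed tissue for the stages, and 0 for the interaction. A filter at the 60th percentile gave 3 at E8.5 and 2 at E9.5, because Foxd3, Tfap2b and Snai1 were then not tested. Fitting only the groups compared gave 3 at E8.5 and 0 in open tissue. Array weights gave 8 at E9.5, adding Tfap2a as higher and Snai1, Snai2 and Ngfr as lower, and 3 in open tissue, adding Ednrb and Tfap2c as lower. In open tissue the mean of all probe sets gave 2, the replicate block over both stages 2, the 3-prime excess as a covariate 2, and leaving out open E9.5 replicates 1 and 2 together 0, and with those arrays out Foxd3 at E9.5 had an adjusted p of 0.076. The cause was not tested. With each array left out in turn the counts were 2 to 5 at E8.5, 4 to 5 at E9.5, 0 to 2 in open tissue, 0 to 1 in closed tissue and 0 to 1 for the interaction. The mean of all probe sets of Sox10 passed at E9.5 (0.62, adjusted p = 0.00474) and that of Tfap2a at E8.5 (0.53, adjusted p = 0.0334). With the replicate block within stage the region calls were 5 at E8.5 and 6 at E9.5, the 2 added ones being Snai2 and Ngfr. This block changed no other region or interaction call of the 9. The block over both stages ended the E8.5 call of Tfap2b (adjusted p = 0.08) and added Tfap2c as lower at E9.5 in open tissue (adjusted p = 0.0468). Over all genes, the calls were 957 at E8.5 and 1139 at E9.5 for the regions, 670 in open and 323 in closed tissue for the stages, and 167 for the interaction. The replicate block within stage gave 2221 at E9.5 and 452 for the interaction. The 3-prime excess as a covariate gave 1519, 1764, 730 in closed tissue and 297. Array weights gave 3424 at E9.5, 4301 in open and 215 in closed tissue. Only the groups compared gave 150 in closed tissue. Without open E9.5 replicates 1 and 2 there were 603, 182 in open tissue and 72. With single arrays left out, those that differed by more than 1.5 times lay at 367 to 436 or 1262 (without open E9.5 replicate 3) in open tissue, 174 to 210 in closed tissue and 84 to 106 for the interaction. A lone array left in a group was given the spread of the others. With 2 closed E8.5 arrays, tissue and array cannot be told apart for a gene high in 1 of them.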
